A study of Mus musculus with 2 samples.

Results

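Solute carrier (Slc) genes encode the membrane proteins that move amino acids, sugars, nucleotides, metals, inorganic ions and metabolites across the plasma membrane and the membranes of organelles. The genes were chosen by symbol (Slc, a family number, a letter and a member number) and by measured level, which had to reach a log2 intensity of 5 on at least 1 of the 2 arrays. Of 334 Slc genes with a probe set naming that gene alone, 161 met this floor, among 10267 genes of all kinds that did. The level used for this choice comes from the same arrays as the differences, so everything below is a description of 2 arrays and no p-value is given.

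The study exposed urogenital sinus mesenchyme cells to testosterone and estradiol and profiled them on Affymetrix arrays. These are the fetal stromal cells next to the epithelium from which the prostate buds. The T+E2 group was 1 array of cells given testosterone (12 nM) and estradiol-17 beta (120 pM), and the untreated group was 1 array of cells without added hormone. Both came from male C57BL/6 mice labelled day 16, and both were kept for 72 h in RPMI 1640 with 5% dextran charcoal-stripped serum (a serum poor in steroid hormones) with Plasmocin (5 µg/ml). The sample titles carry 24 h where all other labels give 72 h. The sample descriptions call the untreated cells confluent and the T+E2 cells nearly so, whereas the growth protocol gives 80% confluency for both. How many animals each culture came from is not stated in the labels.

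Both groups are bulk samples, in which fewer cells of a type and less RNA per cell cannot be told apart. Of 12 mesenchymal markers 11 were measured, with a summed intensity of 245354 with T+E2 and 223801 in untreated cells. Of 16 epithelial markers 3 were measured (Cdh1, Esrp2 and Trp63). Cdh1 was at 7.57 (log2) with T+E2 and 5.37 in untreated cells, a difference of 2.20. The epithelial list summed to 6489 with T+E2 and 4137 in untreated cells, and Epcam and the keratin genes of the list lay below the floor on both arrays. Endothelial markers (2 of 8 measured) summed to 1338 with T+E2 and 1025 in untreated cells, leukocyte markers (2 of 8) to 479 with T+E2 and 1166 in untreated cells, neural markers (1 of 6) to 2358 with T+E2 and 1239 in untreated cells, and skeletal muscle markers (2 of 9) to 445 with T+E2 and 405 in untreated cells. Past 2-fold besides Cdh1 were the endothelial marker Flt1, at 8.08 with T+E2 and 6.56 in untreated cells, and the leukocyte marker Lyz2, at 8.53 with T+E2 and 10.06 in untreated cells. The part of other cell types in the differences below was not tested.

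Solute carriers are grouped into numbered families by sequence relationship, and members of a family mostly share a type of substrate. Secondary active carriers use the sodium gradient made by the sodium pump, a proton gradient or the exchange of another solute, and others let a solute run down its own gradient. The Slc25 family sits mainly in the inner mitochondrial membrane, where it links the matrix to cytosolic metabolism. In fetal stroma the carriers supply dividing cells with amino acids, glucose, metals and the sulfate and sugar donors used to build extracellular matrix.

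Solute carriers as a group lay slightly higher with T+E2, and the share of them that differed by 2-fold or more was close to that of all genes. Of the 161 members, 6 (3.73%) had an intensity 2-fold or more above the untreated one with T+E2, against 4.96% of all measured genes. In the other direction, 7 members (4.35%) were lower by 2-fold or more, against 4.01% of all measured genes. In either direction 8.97% of all measured genes reached 2-fold, so the counts of members stand near the background. The median log2 difference, T+E2 minus untreated, was 0.18 over the members (interquartile range -0.10 to 0.45) and 0.07 over all measured genes (-0.32 to 0.45). Of the members 109 lay above 0 and 52 below, a share above 0 of 67.7%, compared with 55.8% of all measured genes. As yardsticks, the 18 hybridization spikes had an SD of 0.12 between the arrays, and measured probe sets of the same member had a median SD of 0.24 (66 members). Neither is the spread between cultures, which a single array per group cannot give.

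**Figure D1:**
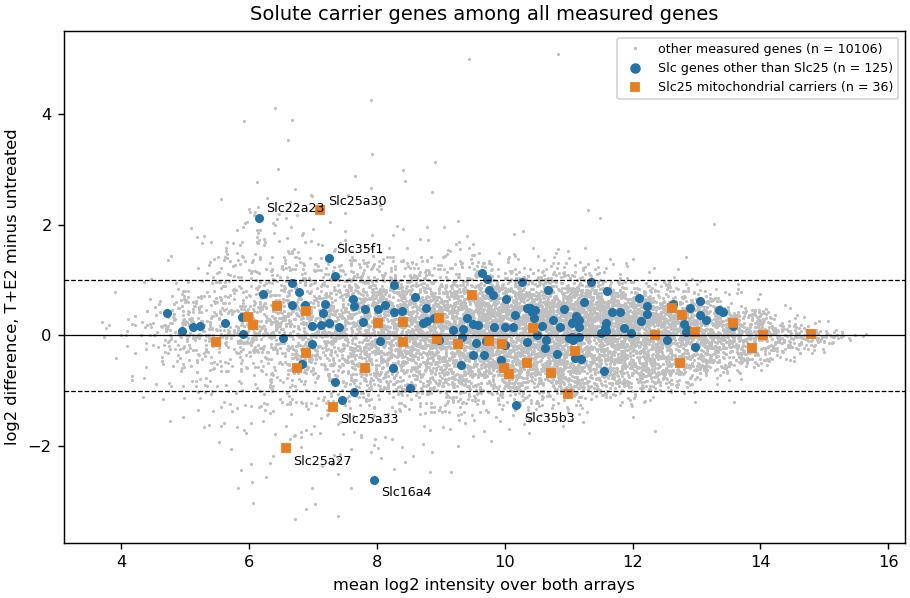
Log2 difference, T+E2 minus untreated (vertical axis), against the mean log2 intensity over both arrays (horizontal axis) for 10106 other measured genes (grey dots), 125 Slc genes other than Slc25 (blue circles) and 36 Slc25 genes (orange squares). Dashed lines mark 2-fold, which 6 members passed upward and 7 downward, and labels name the 7 members with the largest differences.

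The 6 higher members came from 6 substrate classes. Slc25a30, a mitochondrial carrier related to the uncoupling proteins, had an intensity of 305 with T+E2 and 63.4 in untreated cells, a 4.80-fold difference (log2 2.26). A second probe set of Slc25a30 was at 7.05 (log2) with T+E2 and below the floor in untreated cells, so both lay on the same side. The brighter one is of a type (suffix s) that can read several related transcripts. Slc22a23, an organic ion family member without a settled substrate, had 149 with T+E2 and 34.1 in untreated cells (log2 2.13), the untreated value lying just above the floor. Slc35f1, placed by sequence among the nucleotide sugar transporters, had 248 with T+E2 and 94.1 in untreated cells (1.40). The magnesium transporter gene Slc41a1 had 1191 with T+E2 and 543 in untreated cells (1.13).

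Slc23a2, which encodes a sodium-dependent transporter that brings vitamin C into cells, had 236 with T+E2 and 112 in untreated cells (1.07). Slc30a7, which moves zinc from the cytosol into the Golgi, had 1202 with T+E2 and 593 in untreated cells (1.02), but its other probe set differed by only 0.11. Slc22a23, Slc35f1, Slc23a2 and Slc41a1 were each read by a single measured probe set. Differences across all genes grew with genomic span, meaning how much of the chromosome a gene covers, introns included. With that trend removed Slc35f1 stood at 0.74, Slc23a2 at 0.71 and Slc30a7 at 0.74, all under 2-fold, whereas Slc25a30 (2.21), Slc22a23 (1.64) and Slc41a1 (1.15) stayed above it.

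Among the 7 members that were at least 2-fold lower with T+E2, 3 were mitochondrial carriers. Slc16a4, a monocarboxylate transporter family member, had an intensity of 100.2 with T+E2 and 615 in untreated cells, 6.14-fold lower (log2 difference -2.62). Its second measured probe set went the other way, at 6.86 (log2) with T+E2 and 6.65 in untreated cells, and the mean of both was -1.21. Slc25a27, also named uncoupling protein 4, had 47.1 with T+E2 and 194 in untreated cells (-2.04). Slc25a33, a mitochondrial pyrimidine nucleotide carrier, had 102 with T+E2 and 250.1 in untreated cells (-1.29). Slc25a14, also named uncoupling protein 5, had 1417 with T+E2 and 2947 in untreated cells (-1.06).

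The remaining lower members came from 3 other classes. Slc35b3, which carries the sulfate donor PAPS into the Golgi, had 751 with T+E2 and 1804 in untreated cells (-1.26). Slc7a3, a transporter of cationic amino acids such as arginine, had 117 with T+E2 and 262 in untreated cells (-1.16). Slc22a21, a carnitine transporter in mouse, had 139.8 with T+E2 and 283 in untreated cells (-1.02). Each of these 3 genes, and each of the 3 lower Slc25 genes, was read by 1 measured probe set. Just short of 2-fold, between 0.9 and 1.0 in size, lay 5 further members. They were the magnesium transporter gene Slc41a2 (0.96), the sodium/calcium-potassium exchanger gene Slc24a3 (0.96), the vesicular monoamine transporter gene Slc18a2 (0.94), the zinc and iron importer gene Slc39a14 (0.91) and the sodium/proton exchanger gene Slc9a5 (-0.96).

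**Figure D2:**
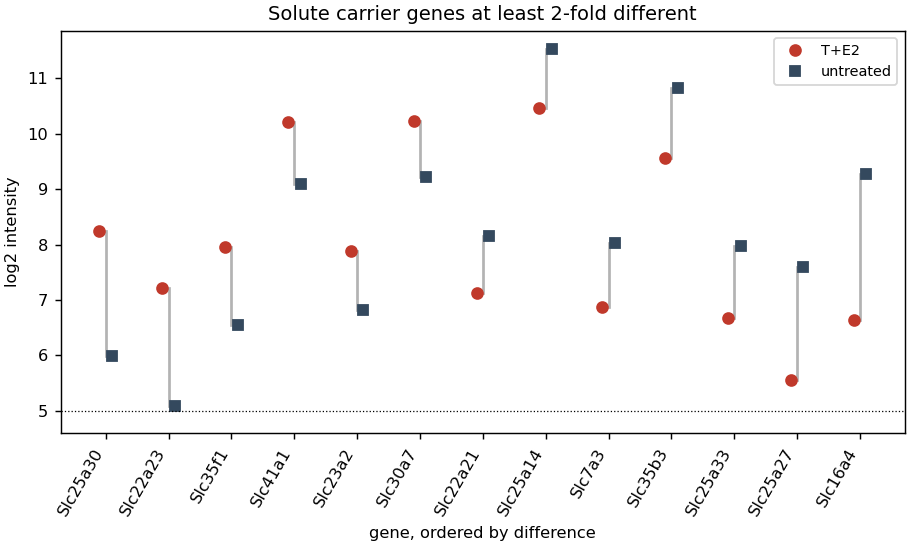
Log2 intensity (vertical axis) of the 13 members at least 2-fold different, with T+E2 (red circles) and in untreated cells (dark squares), 1 array each, ordered from the largest positive to the largest negative difference. The dotted line marks the floor at 5. Slc25a30 and Slc22a23 had the largest positive differences and Slc16a4 and Slc25a27 the largest negative ones.

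The promoter windows of 4 of these genes are shown because the genes had large differences in each direction, and because the windows let the hormone receptor half-sites be read directly. Each window runs from 250 bases before to 50 after the start in RefSeq (GRCm38.p6) and is printed 5′ to 3′ on the strand of the gene. The windows are chr14:75786988-75787287 (minus strand, Slc25a30), chr13:34345169-34345468 (minus strand, Slc22a23), chr3:107290980-107291279 (plus strand, Slc16a4) and chr4:149774218-149774517 (minus strand, Slc25a33). Capitals mark GGTCA, the half-site of the estrogen receptor element, or AGAACA, the half-site of the androgen and glucocorticoid receptor element, on either strand.
Slc25a30: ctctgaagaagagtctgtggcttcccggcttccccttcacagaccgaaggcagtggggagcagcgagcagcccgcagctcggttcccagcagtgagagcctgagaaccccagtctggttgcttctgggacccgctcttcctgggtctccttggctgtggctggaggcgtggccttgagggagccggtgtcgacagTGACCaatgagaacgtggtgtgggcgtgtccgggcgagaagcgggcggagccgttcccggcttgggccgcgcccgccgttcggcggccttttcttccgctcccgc
Slc22a23: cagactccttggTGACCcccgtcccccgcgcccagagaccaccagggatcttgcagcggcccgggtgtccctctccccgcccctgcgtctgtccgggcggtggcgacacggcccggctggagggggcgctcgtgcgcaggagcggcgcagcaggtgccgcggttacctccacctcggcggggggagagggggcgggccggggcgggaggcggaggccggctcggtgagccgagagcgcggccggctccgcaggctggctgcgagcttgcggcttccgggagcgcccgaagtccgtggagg
Slc16a4: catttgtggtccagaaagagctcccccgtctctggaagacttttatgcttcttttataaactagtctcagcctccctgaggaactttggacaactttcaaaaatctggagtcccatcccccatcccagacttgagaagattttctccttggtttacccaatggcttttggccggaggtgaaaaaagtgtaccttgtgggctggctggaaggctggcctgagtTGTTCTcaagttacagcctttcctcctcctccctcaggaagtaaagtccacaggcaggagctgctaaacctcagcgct
Slc25a33: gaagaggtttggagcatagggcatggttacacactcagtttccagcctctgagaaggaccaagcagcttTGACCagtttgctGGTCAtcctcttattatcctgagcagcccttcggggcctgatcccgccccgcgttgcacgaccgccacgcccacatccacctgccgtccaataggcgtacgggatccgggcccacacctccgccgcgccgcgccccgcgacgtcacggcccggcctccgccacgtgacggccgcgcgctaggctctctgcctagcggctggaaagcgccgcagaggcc

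The Slc16a4 window held 1 AGAACA match, read on the opposite strand and beginning at position -28 from the start, and no GGTCA. The Slc25a30 window held 1 GGTCA match at -55, the Slc22a23 window 1 at -238 and the Slc25a33 window 2. Such short words are common: GGTCA occurred in 40.5% of all 32851 promoter windows and in 43.5% of the 168 windows found for 127 of the measured members. AGAACA occurred in 19% of all windows and in 10.1% of the members' windows. The 6 higher members had 7 windows, of which 2 held GGTCA and 1 held AGAACA. Only 4 of the 7 lower members had a window, since none was available for Slc25a27, Slc7a3 and Slc22a21. These 4 genes had 7 windows, some of them overlapping, of which 1 held each word. The longer words TGACGTCA (the cyclic AMP response element) and TGANTCA (the AP-1 site), which contain neither half-site but can overlap one in part, occurred in none of these 14 windows, against 1.79% and 7.81% of all windows. A match is a string of letters and not a shown binding site.

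Substrate classes were compared to see whether carriers of some solutes differed more than others between the hormone-treated and untreated cultures. The 161 members fell into 12 substrate classes, assigned by family number. In 11 classes the median difference was above 0, between 0.12 and 0.43, and in the mitochondrial carriers of the Slc25 family it was -0.09. No class had more than 3 members past 2-fold in 1 direction. Most class medians were smaller than 0.24, the median SD between probe sets of the same gene. That SD is a spread within single genes and sets no bound on a class median. The sign and rough order of the medians are description only. With the span trend removed, sodium, proton and calcium exchange turned from 0.43 to -0.032.

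**Figure D3:**
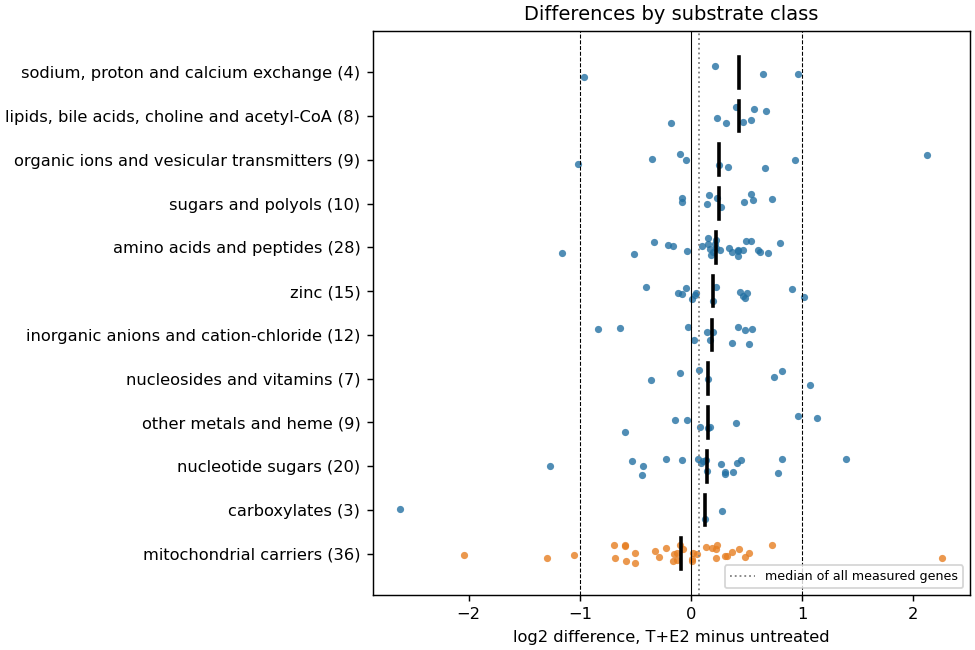
Log2 difference, T+E2 minus untreated (horizontal axis), of the 161 members by substrate class (vertical axis, number of members in brackets), 1 point per gene, with vertical scatter added for legibility. Black bars are class medians, the dotted line is the median of all measured genes (0.07) and dashed lines mark 2-fold. The Slc25 class (orange) is the one with a median below 0.

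Mitochondrial carriers were the largest class, and the one class with a negative median. Some classes merge families, and a family inside such a class could also have a median below 0. The Slc22 family, with 6 measured genes, had a median of -0.07, with 2 genes above 0 and 4 below. Of 44 Slc25 genes on the array, 36 were measured, all of them on both arrays. By the 2-fold rule 1 stood higher with T+E2, 3 stood lower, and 32 did not pass it. These are 2.78% and 8.33% of the class, against 4.96% and 4.01% of all measured genes. Of the 36, 17 lay above 0 and 19 below, with a median of -0.09 and an interquartile range of -0.50 to 0.23. The other 125 members had a median of 0.22 and 92 of them (73.6%) lay above 0. With the span trend removed the medians were -0.03 for Slc25 and 0.19 for the others, and with centring on all genes -0.16 and 0.15. The difference between the medians was not tested, since genes on a single pair of arrays are not replicates.

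The carriers that exchange ATP, ADP and phosphate for oxidative phosphorylation were nearly equal on the arrays. The adenine nucleotide translocase gene Slc25a4 had a log2 intensity of 14.80 with T+E2 and 14.79 in untreated cells, and the second translocase gene, Slc25a5, had 13.75 with T+E2 and 13.97 in untreated cells. All 8 probe sets of Slc25a5 lay below 0, between -0.27 and -0.12, and 6 of them are of a type (suffix x) that can also read related genes. The phosphate carrier gene Slc25a3 had 14.04 with T+E2 and 14.03 in untreated cells. A dimmer probe set of Slc25a3 was at 6.18 with T+E2 and 8.33 in untreated cells, so the probe sets of this gene disagreed. Probe sets of Slc25a4 also lay on opposite sides of 0, between -0.35 and 0.02.

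The carriers closest to the uncoupling proteins differed in opposite directions. All 3 passed 2-fold: Slc25a30 was higher (2.26), and Slc25a27 (-2.04) and Slc25a14 (-1.06) were lower with T+E2. Slc25a14 was far from the floor, at 10.47 with T+E2 and 11.53 in untreated cells, whereas Slc25a27 was near it with T+E2 (5.56, against 7.60 in untreated cells). These role groups within Slc25 were drawn with the values known, so they order the description and carry no evidence of their own.

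Carriers serving mitochondrial iron, heme and glutathione were mostly lower by less than 2-fold. Of 5, 4 lay below 0, with a median of -0.59. The iron importer genes Slc25a37 (mitoferrin 1) and Slc25a28 (mitoferrin 2) were at 9.71 and 9.70 with T+E2, against 10.41 and 10.29 in untreated cells. Slc25a38, which brings in glycine for heme synthesis, was at 6.46 with T+E2 and 7.05 in untreated cells. Of the closely related glutathione carrier genes, Slc25a40 was at 10.38 with T+E2 and 11.07 in untreated cells (-0.69). The brighter gene, Slc25a39, lay on the other side, at 13.68 with T+E2 and 13.46 in untreated cells, with all 4 measured probe sets between 0.18 and 0.24.

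Other mitochondrial carriers were spread on both sides. Slc25a20, which imports acylcarnitines for fatty acid oxidation, was lower by 0.50 at 12.48 with T+E2 and 12.99 in untreated cells. Slc25a17, a family member that resides in peroxisomes, was at -0.50. The citrate carrier gene Slc25a1 (-0.16), the oxoglutarate carrier gene Slc25a11 (-0.16) and the dicarboxylate carrier gene Slc25a10 (0.23) lay near 0. Of the 5 measured calcium-regulated carriers, the ATP-Mg/phosphate carrier genes Slc25a23 (0.52), Slc25a24 (0.49) and Slc25a25 (0.19) lay above 0. The aspartate/glutamate carrier genes Slc25a12 (-0.10) and Slc25a13 (-0.28) lay below it, Slc25a12 with probe sets on opposite sides. Slc25a44, a branched-chain amino acid carrier, stood at 0.73 and the NAD carrier gene Slc25a51 at 0.37, the second with opposing probe sets. Outside the family name, 10 measured mitochondrial carriers and their relatives (Mpc, Mtch, Sfxn and Letm genes) had a median of -0.13. Of them 6 lay below 0 and 4 (40%) above, against 55.8% above 0 of all measured genes. Only Sfxn4 (-1.13) passed 2-fold, which is 10% of the list, against 4.01% of all measured genes on the lower side.

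**Figure D4:**
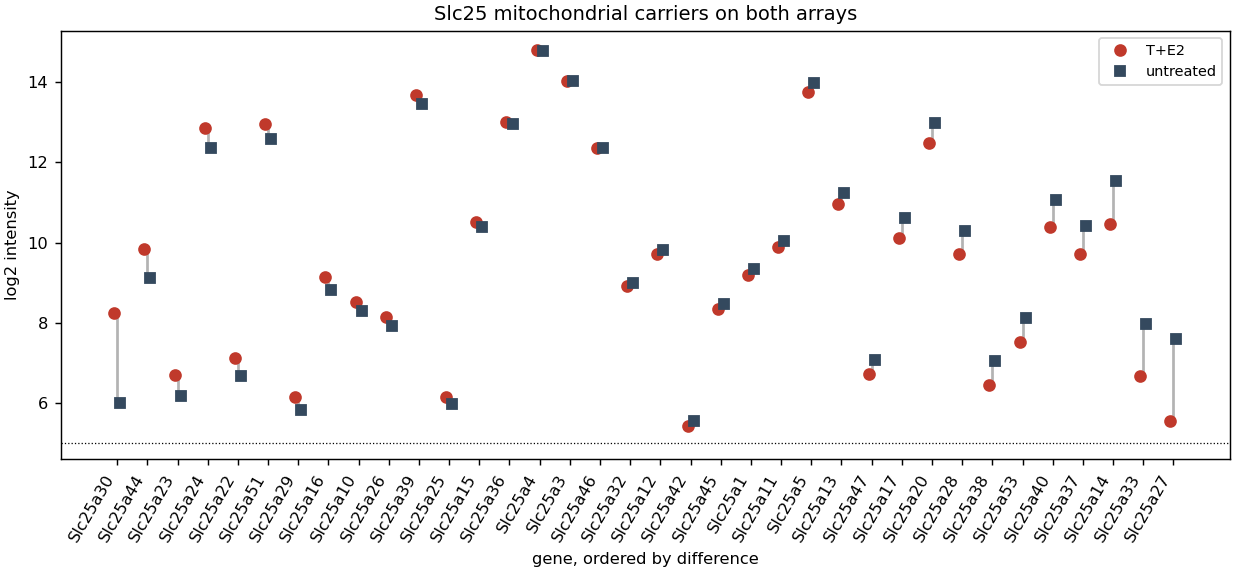
Log2 intensity (vertical axis) of the 36 measured Slc25 genes with T+E2 (red circles) and in untreated cells (dark squares), 1 array each, ordered by difference. The dotted line marks the floor at 5. Of the 36 genes, 17 lay above 0 and 19 below, and the adenine nucleotide and phosphate carrier genes Slc25a4 and Slc25a3 show almost coincident points.

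Transporters of amino acids and peptides lay above 0 in 22 of 28 cases, with a median of 0.23 and none at least 2-fold higher. With the mean of measured probe sets, in which single probe sets were not floored, Slc6a6 passed 2-fold. Its dimmest measured probe set entered that mean at 4.38 (log2) in untreated cells, below the floor. Slc6a6, the taurine transporter gene, differed most on the high side, at 12.00 with T+E2 and 11.19 in untreated cells (0.80), and its 3 measured probe sets ranged from 0.44 to 1.52. The lysosomal proton-coupled transporter gene Slc36a1 stood at 0.70, the glutamine transporter gene Slc38a1 at 0.62 and the creatine transporter gene Slc6a8 at 0.61. All 4 measured members of family 6 lay above 0, with a median of 0.57.

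The large neutral amino acid transporter is a dimer of the light chain of Slc7a5 and the heavy chain of Slc3a2. Slc7a5 was at 11.89 with T+E2 and 11.46 in untreated cells, and Slc3a2 at 13.66 with T+E2 and 13.49 in untreated cells, so both chains were higher by less than 0.5. Among cationic amino acid transporters, Slc7a1 was at 13.63 with T+E2 and 13.21 in untreated cells (0.42) and Slc7a2 at 0.18, while Slc7a3 was the member past 2-fold on the low side (-1.16). Of the neutral amino acid exchangers, Slc1a4 stood at 0.50 and the glutamine carrier gene Slc1a5 at 0.26. The glutamate transporter gene Slc1a3 stood at -0.21 at 12.87 with T+E2 and 13.08 in untreated cells. Slc38a9, a lysosomal arginine sensor of the mTORC1 pathway, stood at -0.51, and Slc38a10 at 0.37. Probe sets of Slc1a3 and Slc38a9 lay on opposite sides of 0, in each gene because 1 of them stood at or barely above 0.

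Sugar and polyol transporters were higher by small amounts in 8 of 10 cases, with a median of 0.26 and none past 2-fold. With the mean of measured probe sets Slc45a4 passed it. The main glucose transporter gene of proliferating cells, Slc2a1, was at 13.29 with T+E2 and 13.02 in untreated cells (0.27), with its 3 probe sets between 0.27 and 0.39. The myo-inositol transporter gene Slc5a3 was at 12.92 with T+E2 and 12.36 in untreated cells (0.56), and Slc45a4 stood at 0.73. All 3 measured Slc2 genes lay above 0 (median 0.47). The class follows family number, so it also holds Slc5a7, a choline transporter gene, at 0.15.

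Only 3 of 18 carboxylate transporters were measured. Beside Slc16a4, the lactate and pyruvate transporter gene Slc16a1 was at 11.93 with T+E2 and 11.81 in untreated cells, and Slc16a9 at 11.30 with T+E2 and 11.02 in untreated cells. Bsg, whose product escorts Slc16a1 to the plasma membrane, stood at -0.38. The nearest gene below the floor was of this family: Slc16a13 had 4.98 with T+E2 and 4.69 in untreated cells, followed by the sugar transporter gene Slc2a6 at 4.57 with T+E2 and 3.87 in untreated cells. Just inside it were the magnesium transporter family gene Slc41a3, at 5.08 with T+E2 and 4.83 in untreated cells, and the nucleoside transporter gene Slc29a1, at 5.20 with T+E2 and 5.05 in untreated cells.

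The Slc35 family, which holds the nucleotide sugar and PAPS transporters that supply the Golgi for glycosylation and sulfation, had a median of 0.14. In it 14 of 20 genes lay above 0. The class follows family number, so it also holds genes placed there by sequence, such as Slc35f1. All measured Slc35e and Slc35f genes lay above 0, between 0.07 and 1.40. The 6 genes below 0 were all among the Slc35a to Slc35d genes. Slc35f1 was at least 2-fold higher and Slc35b3 at least 2-fold lower. Both PAPS transporter genes lay below 0, since Slc35b2 was at 10.98 with T+E2 and 11.42 in untreated cells (-0.44). The CMP-sialic acid transporter gene Slc35a1 was at -0.44 and the UDP-galactose transporter gene Slc35a2 at 0.09. The GDP-fucose transporter gene Slc35c1 was at 0.79, with 7.18 on the T+E2 array and 6.39 on the untreated array. Slc35f6 stood at 0.82 and Slc35f5 at 0.07.

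Zinc transporters comprised 15 measured genes with a median of 0.20, 11 of them above 0. Slc30 proteins lower cytosolic zinc and Slc39 proteins raise it. The 6 measured Slc30 genes had a median of 0.04, or -0.04 with the span trend removed, with Slc30a7 at least 2-fold higher, Slc30a1, the exporter at the plasma membrane, at 0.49 and Slc30a6 at -0.40. Slc30a4 was at 12.50 with T+E2 and 12.58 in untreated cells. The 9 measured Slc39 genes had a median of 0.23. Among them Slc39a14 was at 8.73 with T+E2 and 7.82 in untreated cells, and Slc39a1 at 12.91 with T+E2 and 12.71 in untreated cells. The zinc-responsive metallothionein genes Mt1 (0.04, with opposing probe sets) and Mt2 (-0.13) lay near 0.

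Carriers of other metals and heme had a median of 0.15 over 9 genes. All 3 genes of the magnesium transporter family lay above 0: Slc41a1 was at 10.22 with T+E2 and 9.09 in untreated cells, Slc41a2 at 11.83 with T+E2 and 10.87 in untreated cells, and Slc41a3 close to the floor on both. With the span trend removed Slc41a2 stood at 0.56. The iron importer gene Slc11a2 stood at 0.41 and the iron exporter gene Slc40a1, which encodes ferroportin, at -0.15. The copper importer gene Slc31a1 was at 0.17, with opposing probe sets, and Slc31a2 at -0.59. Slc49a4 was at 11.14 with T+E2 and 11.18 in untreated cells. Of 13 measured metal handling genes outside the Slc families, Cp, the copper-bound ferroxidase ceruloplasmin, was at least 2-fold higher (1.47) and Hfe, a regulator of iron uptake, at least 2-fold lower (-1.28). Each is 7.69% of the list, against 4.96% of all measured genes that were higher and 4.01% that were lower. The transferrin receptor gene Tfrc stood at -0.07, also with opposing probe sets.

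In the classes of inorganic ion transporters and of sodium, proton and calcium exchangers no member passed 2-fold, although Slc9a5 (-0.96) did so at -1.03 with centring on all genes and at -1.04 with the level trend removed. The 12 measured genes of inorganic anion and cation-chloride transport had a median of 0.19. Slc12a2, the sodium-potassium-chloride cotransporter, was at 12.49 with T+E2 and 11.97 in untreated cells, and all 4 measured Slc12 genes lay above 0 (median 0.47, or 0.23 with the span trend removed). The sulfate transporter gene Slc26a2 stood at 0.49, the anion exchanger gene Slc4a3 at -0.84 and Slc26a7 at -0.64, the last with opposing probe sets and at -1.06 with the span trend removed. The class of sodium, proton and calcium exchange held 4 measured genes of 17. In it Slc24a3 was at 10.75 with T+E2 and 9.79 in untreated cells, Slc9a9 at 10.35 with T+E2 and 9.70 in untreated cells, while Slc9a5 had an intensity of 264 with T+E2 and 513 in untreated cells. Slc24a3 and Slc9a9 span 474 and 561 kb, and with the span trend removed they stood at 0.28 and -0.06.

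Of the sodium pump and its regulators, 11 genes were measured, with a median of 0.17, which turned to -0.17 with the span trend removed. The pump regulator gene Fxyd1 was at least 2-fold lower (-1.06), and none was at least 2-fold higher. These are 9.09% and 0% of the list, against 4.01% and 4.96% of all measured genes. The kinase gene Wnk1, which acts on cation-chloride cotransporters, stood at 0.84. Among scaffolds and chaperones 3 genes were measured, Bsg, Slc9a3r1 (0.52) and Slc9a3r2 (0.22), and none passed 2-fold. The water channel list had 1 measured gene of 11, Aqp11, at 0.42.

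Lipid, bile acid, choline and acetyl-CoA carriers lay above 0 in 7 of 8 cases, with a median of 0.43 and no member past 2-fold. With the mean of measured probe sets Slc44a1 passed it, its dimmer probe set standing at 1.39, and with a floor of 4 Slc10a6 did. The choline transporter genes Slc44a1 and Slc44a2 were at 12.44 and 13.58 with T+E2, against 11.77 and 13.12 in untreated cells. The fatty acid transport protein genes Slc27a1 and Slc27a4 stood at 0.54 (with opposing probe sets) and 0.56. Slc10a6, which encodes an importer of sulfated steroids, reached the floor with T+E2 only, at 5.40 against 4.04 in untreated cells, and was therefore at least 1.32-fold higher. The acetyl-CoA transporter gene Slc33a1 was the member below 0 (-0.18).

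Nucleoside and vitamin transporters had a median of 0.15 over 7 genes, and 5 lay above 0. The lysosomal nucleoside transporter gene Slc29a3 was at 11.08 with T+E2 and 10.27 in untreated cells (0.82), and the thiamine transporter gene Slc19a2 at 11.62 with T+E2 and 11.54 in untreated cells. The proton-coupled folate transporter gene Slc46a1 stood at -0.36. Organic ion and vesicular transporters had a median of 0.26 over 9 genes, of which 5 lay above 0. Within this class the 6 measured Slc22 genes had a median of -0.07. The carnitine transporter genes Slc22a5 (-0.35) and Slc22a21 (-1.02) were both below 0. Slc18a2 was at 7.14 with T+E2 and 6.20 in untreated cells, and Slc18b1 at 12.25 with T+E2 and 12.00 in untreated cells.

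Transporter families outside the symbol rule were set beside the members. ABC genes were taken by symbol, and most of them encode transporters that pump substrates with ATP. That description does not apply to Abce1, Abcf1, Abcf2 and Abcf3, which the list also holds. Of its 22 measured genes, 2 stood higher by the 2-fold rule (9.09%, against 4.96% of all measured genes) and 1 lower (4.55%, against 4.01%). The median of the list was 0.28, and 0.041 with the span trend removed. The cholesterol exporter gene Abca1 was below the floor in untreated cells (4.46) and at 7.78 with T+E2, higher by at least 2.78 on the log2 scale. Abcc4 stood at 1.11 and Abcc5 at -1.12, Abcc5 with opposing probe sets. Of 15 organic anion transporting polypeptide genes (Slco), only Slco3a1 was measured, at 9.67 with T+E2 and 7.94 in untreated cells (1.73).

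Genomic span and intensity both moved with the difference between the arrays, and their part in it was not tested. Over all measured genes the median difference was -0.14 in the shortest 3412 genes (up to 14.6 kb), 0.03 in the middle 3412 and 0.36 in the longest 3413 (above 41.6 kb). Over the members the same span ranges gave 0.15 (40 genes), 0.17 (77 genes) and 0.23 (44 genes), so the short members had a median above that of all short genes and the long ones a median below that of all long genes. The 13, 16 and 7 Slc25 genes in these ranges had medians of 0.01, -0.03 and -0.28, and the other members 0.16, 0.21 and 0.37. By intensity, none of the 26 members with a mean log2 of 12 or more passed 2-fold, 4 of 73 between 9 and 12 did, and 9 of 62 under 9 did. Of all measured genes 1.05%, 7.59% and 16.0% did so in the same ranges.

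The other 173 Slc genes lay below the floor on both arrays and have no difference here. Of the 50 families on the array 42 had a measured member. The 8 without one were Slc8, Slc13, Slc14, Slc28, Slc32, Slc34, Slc47 and Slc52, which carry among others calcium, sulfate, urea and phosphate. The measured share was 81.8% in Slc25 and 43.1% in the other families, beside 56.4% of all named genes. Of the 161 members 159 reached the floor on both arrays, 2 with T+E2 only (Slc10a6 and Slc41a3) and 0 in untreated cells only. Among all 10267 measured genes 165 did so with T+E2 only and 93 in untreated cells only. More than 1 measured probe set was available for 66 members, and in 46 of them (69.7%) they lay on the same side of 0, as they did in 70.5% of all genes with several.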

How the data were processed

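RNA from 1 T+E2 culture and 1 untreated culture was hybridized to Affymetrix arrays of 45101 probe sets. Per the labels' protocols, total RNA from an Omega Bio-Tek kit was turned into biotinylated cDNA with NuGEN kits. The deposited intensity values are on a linear scale and were made by the authors with GCRMA, per the submitters' processing notes, which give no version. GCRMA corrects the background by probe sequence and summarizes each probe set. The scanner files were not used here, so background correction and normalization could not be varied, and precision is limited by having 1 array per group.

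Log2 of each intensity was taken. Probe sets naming 1 gene (34945, standing for 18193 genes) were named from the platform annotation, with symbols updated through the RefSeq table of GRCm38.p6, where all 334 Slc genes were found. The probe set with the highest mean gave the gene's value, and values under a log2 of 5 (intensity 32) were set to 5 before the difference, T+E2 minus untreated, was formed. A gene was measured if 1 array reached this floor. The 2-fold rule is a log2 difference of 1. A log2 difference is T+E2 minus untreated, so positive values are higher with T+E2. Trends with span or level were removed by lowess (fraction 0.3). No p-value was computed, and the procedure was tested on simulated data. The simulation held few values near the floor and no spread between cultures or between probe sets of a gene. Python 3.11.15, pandas 2.3.3 and statsmodels 0.14.6 were used.

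Members, classes and lists were chosen with earlier results of these data known. Genes named by rule comprise the 10 largest differences in each direction, the 2 largest and 2 brightest of each class, the 10 brightest members, those nearest the floor, and list members past 2-fold or else the 2 largest. A further part of the rule, for members reaching 6 on 1 array while below 5 on the other, applied to none. Other named genes were chosen after their values were seen.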

Additional observations from a re-analysis of the deposited data

How the results depend on the processing

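With 1 array per group the limits are the missing replicates and, for dim probe sets, signal over background. No paired analysis was possible because each group has 1 array. Under floors of 4 and 6, the mean of measured probe sets, centring on the median of all genes, removal of the span or level trend, only probe sets on the same side, and symbols as annotated, the members' median stayed between 0.09 and 0.22, and without a floor, where 334 genes enter, it was 0.013. With the span trend removed 3 members were higher and 8 lower, while 2.94% and 4.19% of all genes were. With the mean of probe sets they were 9 and 8 (5.67% and 5.10% of all genes), and with centring 5 and 8 (3.97% and 5.06%). Slc9a5 passed 2-fold with centring and with the level trend removed. The mean of probe sets added Slc25a24, Slc44a1, Slc45a4 and Slc6a6 on the higher side and Slc25a3 on the lower. In this setting the floor was applied to the mean and not to each probe set. Slc25a24 and Slc6a6 each entered with a probe set under the floor in untreated cells (4.07 and 4.38). With each probe set floored, those of Slc25a24 stood at 0.49 and 0.95. A floor of 4 added Slc10a6, and removal of the span trend added Slc26a7. All 13 members past 2-fold remained so at floors of 4 and 6 and without a floor. The other settings, except symbols as annotated, lost 1 to 3 of them: Slc30a7, Slc23a2 or Slc35f1, or, where opposing probe sets were left out, Slc16a4. With a floor of 6 Slc22a23 stood at 1.22, and with the span trend removed at 1.64. The Slc25 median stayed below 0 except without a floor (0.0070). Without a floor the medians were 0.013 for amino acids and peptides, 0.011 for inorganic anions, 0.035 for lipids, 0.022 for nucleosides and vitamins, 0.0078 for organic ions, 0.016 for sodium, proton and calcium exchange, 0.015 for sugars and 0.021 for zinc. That setting adds the 173 genes below the floor on both arrays. Nucleosides and vitamins stood at 0.33 with a floor of 6, 0.0084 with the level trend removed and 0.45 with probe sets on the same side. Nucleotide sugars stood at 0.31 with the mean of probe sets. Organic ions stood at 0.056 with a floor of 6 and 0.029 with the span trend removed. Sodium, proton and calcium exchange stood at 0.65 with a floor of 6 and turned to -0.032 with the span trend removed. The cause of these shifts was not tested.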

Other observations

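Further probe sets of some members differed by 2-fold or more although the brightest one did not. This held for 17 members, 10 with a higher and 7 with a lower probe set with T+E2. The same count was not made over all genes, so whether 17 is above or below the background is not known. The lower ones included Slc1a3, whose dimmer probe set was at 6.44 (log2) with T+E2 and 9.57 in untreated cells (-3.13) while the brighter one stood at -0.21. Slc38a2 had a probe set at 6.59 with T+E2 and 8.39 in untreated cells (-1.80) while its brightest stood at 0.42. The probe sets of Slc35a3 (-1.21) and Slc35b2 (-1.17) lay on the same side as the brightest ones of these genes (-0.22 and -0.44).

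The higher ones included Slc38a10, with a probe set at 7.55 with T+E2 and 5.48 in untreated cells (2.07), and Slc45a4, with one at 8.13 with T+E2 and 6.09 in untreated cells (2.04). Slc25a12 had a probe set at 6.70 with T+E2 and 5.10 in untreated cells (1.60), against -0.10 for its brightest, and Slc25a53 had one at 7.07 with T+E2 and 5.99 in untreated cells (1.07), against -0.59 for its brightest. Which transcript forms these probe sets read was not tested. The 6 probe sets that name an Slc gene together with another gene lay below the floor on both arrays.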
